A study of Mus musculus with 18 samples.

Results

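The genes described here are Gfap, Vim, Nes, Fabp7, S100b and Cd44, 6 genes commonly read as markers of astrocytes and of their reactive state. They were measured in mice that lack Ppt1 (KO) and in wild-type mice (WT). Every probe set whose only gene symbol in the platform annotation was one of these was taken. The 6 are among 18194 genes with such a probe set. They had 16 of the 45101 probe sets on the array, with 3 for Gfap, 3 for Vim, 3 for Nes, 1 for Fabp7, 2 for S100b and 4 for Cd44. Of these, 13 passed the filter on dim probe sets (3 of Gfap, 3 of Vim, 1 of Nes, 1 of Fabp7, 2 of S100b and 3 of Cd44). The other 3, with 2 for Nes and 1 for Cd44, were among the dimmest 40% and were not tested.

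Total RNA of 18 samples was hybridised to 1 Affymetrix mouse array each. The groups were Ppt1 knockout at 3, 5 and 8 months and wild type at the same ages, with 3 arrays in each of the 6 groups. A group held 2 females and 1 male, apart from the KO group at 8 months with 1 female and 2 males. The labels name brain and cochlea together as the source, give no strain or allele, and do not say whether the 3 arrays of a group are 3 mice, so each p-value reflects how far these arrays scatter, and some of that scatter may be technical. The protein of Ppt1 is a thioesterase of the lysosome that strips palmitate off other proteins. In people, its deficiency leads to an infantile neuronal ceroid lipofuscinosis. Ppt1 probe set 1422467_at averaged 12.9 ± 7.66 in KO arrays, with a highest value of 23.4, and 595 ± 29.3 in WT arrays, with a lowest value of 543 (SD, n = 9 each), so it went with the labels on every array. Of the other 4 Ppt1 probe sets, 1422468_at and 1444884_at were also lower in KO, 1420016_at was at background on every array, and 1420015_s_at was not lower (0.11 ± 0.12 on the log2 scale, adjusted p = 0.611, limma). Of 18 genes listed as general astrocyte markers, 18 were above background on all 18 arrays. Of the 15 cochlea markers on the array 5 were, and Oc90, a protein of the otoconia, was at background on every array.

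Astrocytes carry intermediate filaments of glial fibrillary acidic protein (Gfap), vimentin (Vim) and, when they are immature or strongly reactive, nestin (Nes). In injury and in many neurodegenerative states they enlarge and make more Gfap and Vim, a change called astrogliosis. Fabp7, the brain fatty acid binding protein, is a marker of radial glia and of some adult astrocytes. S100b is a calcium-binding protein that is abundant in astrocytes, and Cd44 is a surface receptor for hyaluronan that is found on a subset of astrocytes and on many immune cells.

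The promoters of Gfap and Vim are shown because both genes were higher in every KO array, and because activity of STAT3 on the Gfap promoter is a known step of astrogliosis. The windows are RefSeq's, on build GRCm38.p6, and run from 250 bases before to 50 after the annotated start site. All 6 genes had a window in the table. Capitals mark matches to 3 motifs searched on both strands, which were TTCNNNGAA (bound by STAT factors), TGANTCA (AP-1) and TATAAA (the TATA box), and no 2 matches overlapped.
Gfap, chr11:102897151-102897450, minus strand: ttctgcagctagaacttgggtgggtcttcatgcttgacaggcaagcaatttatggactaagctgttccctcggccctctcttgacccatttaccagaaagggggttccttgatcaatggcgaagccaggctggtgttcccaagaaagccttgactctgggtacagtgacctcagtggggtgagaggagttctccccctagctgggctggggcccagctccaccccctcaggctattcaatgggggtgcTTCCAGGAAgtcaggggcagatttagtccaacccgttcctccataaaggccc
Vim, chr2:13574061-13574360, plus strand: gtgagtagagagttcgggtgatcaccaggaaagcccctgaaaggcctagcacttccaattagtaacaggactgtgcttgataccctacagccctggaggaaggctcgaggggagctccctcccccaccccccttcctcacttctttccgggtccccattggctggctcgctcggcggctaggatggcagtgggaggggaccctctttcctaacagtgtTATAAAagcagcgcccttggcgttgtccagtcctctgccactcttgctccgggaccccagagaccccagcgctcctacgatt
The Gfap window held 1 match, TTCCAGGAA, whose first base lies at -2 from the annotated start. The Vim window held TATAAA at -32. These letters were not in the windows of Nes, Fabp7, S100b and Cd44. Over 32851 promoter windows of this length, 8.3% held the first motif, 7.81% the second and 13.6% the third. A match describes the letters of a window and is no evidence that a factor binds there.

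Gfap was higher in KO than in WT at each of the 3 ages on all 3 of its probe sets, and the difference was larger at 8 months than at 3 months. The brightest probe set, 1426508_at, had KO signals of 1796, 1823 and 1939.5 at 3 months, 4333, 4007 and 3692 at 5 months and 6313, 6303 and 4122 at 8 months. In WT arrays its signals were 640.3, 606 and 640.2 at 3 months, 677, 737 and 678 at 5 months and 675, 746 and 729.5 at 8 months. Thus no KO array came within the WT range at any age, the lowest KO signal at 3 months stood well above the highest WT signal at 8 months, and the 3 WT groups lay close together. On the log2(signal + 16) scale used for all tests, on which a change of 1 is a doubling of bright signals, the difference between KO and WT was 1.54 ± 0.11 (adjusted p = 1.23e-08) at 3 months, 2.5 ± 0.11 (adjusted p = 3.24e-12) at 5 months and 2.93 ± 0.11 (adjusted p = 3.79e-13) at 8 months. An error after a log2 difference is the standard error of limma's fit, and p-values were adjusted over 27022 tested probe sets by the Benjamini-Hochberg method. Such a difference does not tell more RNA per astrocyte from more astrocytes in the tissue, for any gene given here.

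The other Gfap probe sets moved in the same way. Probe set 1426509_s_at ranged over 1335 to 1435 at 3 months, 2886 to 3515 at 5 months and 3104 to 5764 at 8 months in KO arrays, and over 357 to 404, 412 to 509 and 431 to 495 at the same ages in WT arrays. Probe set 1440142_s_at ranged over 465 to 500 at 3 months, 885 to 1040 at 5 months and 943 to 1929 at 8 months in KO arrays, and over 127 to 244, 151 to 238 and 168 to 214 at the same ages in WT arrays. In both, the KO and WT ranges were apart at every age. As the mean over ages, the 3 probe sets differed by 2.32 ± 0.06, 2.68 ± 0.09 and 2.09 ± 0.13, with adjusted p-values of 1.37e-16, 2.38e-15 and 1.36e-10 from limma. These sizes spanned 0.59 and no value lay in all 3 of their 95% intervals, although the direction and the call were shared at every age. The interval of 1426509_s_at, 2.5 to 2.85, stood apart. Those of 1426508_at, 2.19 to 2.45, and 1440142_s_at, 1.83 to 2.35, overlapped. The call of 1440142_s_at at 3 months was lost without a trend in the variance model (adjusted p = 0.0501, limma). At single ages the span lay between 0.5 and 0.65, and the intervals shared values. Probe sets 1426508_at and 1426509_s_at share 1 target sequence in the annotation, so they are not independent measurements. The suffixes _s_at and _x_at mark probes that can match transcripts of other genes, and _a_at those that match several transcripts of 1 gene.

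Vim, which encodes the other main filament protein of reactive astrocytes and is also made by endothelial, meningeal and microglial cells, was higher in KO as the mean over ages on 3 of 3 probe sets. Probe set 1450641_at had KO signals of 821, 826 and 771 at 3 months, 1760.2, 1513 and 1444 at 5 months and 3385, 3080.1 and 1374 at 8 months. Its WT signals were 462, 477 and 409.9 at 3 months, 486, 538 and 504 at 5 months and 471, 544 and 508 at 8 months. Every KO array was above every WT array, and at 8 months replicates 1 and 2 of the KO group lay far above replicate 3, which lay below the 5-month KO arrays. The difference was 0.82 ± 0.19 (adjusted p = 0.044) at 3 months, 1.59 ± 0.19 (adjusted p = 2.35e-05) at 5 months and 2.25 ± 0.2 (adjusted p = 1.51e-07) at 8 months.

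Probe set 1438118_x_at ranged over 782 to 1069.7 at 3 months, 1531 to 1941 at 5 months and 1723 to 3847 at 8 months in KO arrays, and over 499 to 588, 652 to 757 and 585 to 639 at the same ages in WT arrays. Probe set 1456292_a_at ranged over 505 to 636 at 3 months, 1020.2 to 1139 at 5 months and 1112 to 2487 at 8 months in KO arrays, and over 298 to 343, 334 to 420 and 316 to 346 at the same ages in WT arrays. These also kept the genotypes apart at every age, and they share a target sequence in the annotation. At 3 months the 3 Vim differences lay between 0.75 and 0.84 on the log2 scale. Only the smallest, on 1438118_x_at, missed the threshold, with an adjusted p of 0.0501 against 0.044 and 0.0279 for the others in limma's fit. These calls at 3 months sat at the threshold: under the variance model without trend or the robust one none of the 3 passed, and leaving out any 1 array of either genotype at 3 months, apart from KO replicate 3, left 0 of the 3. At 5 months the differences were 1.32, 1.59 and 1.48, and at 8 months 2.25, 2.25 and 2.45, all of which passed. As the mean over ages they differed by 1.44 ± 0.11, 1.55 ± 0.11 and 1.59 ± 0.11, a span of 0.15 within which the 95% intervals overlapped.

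**Figure D1:**
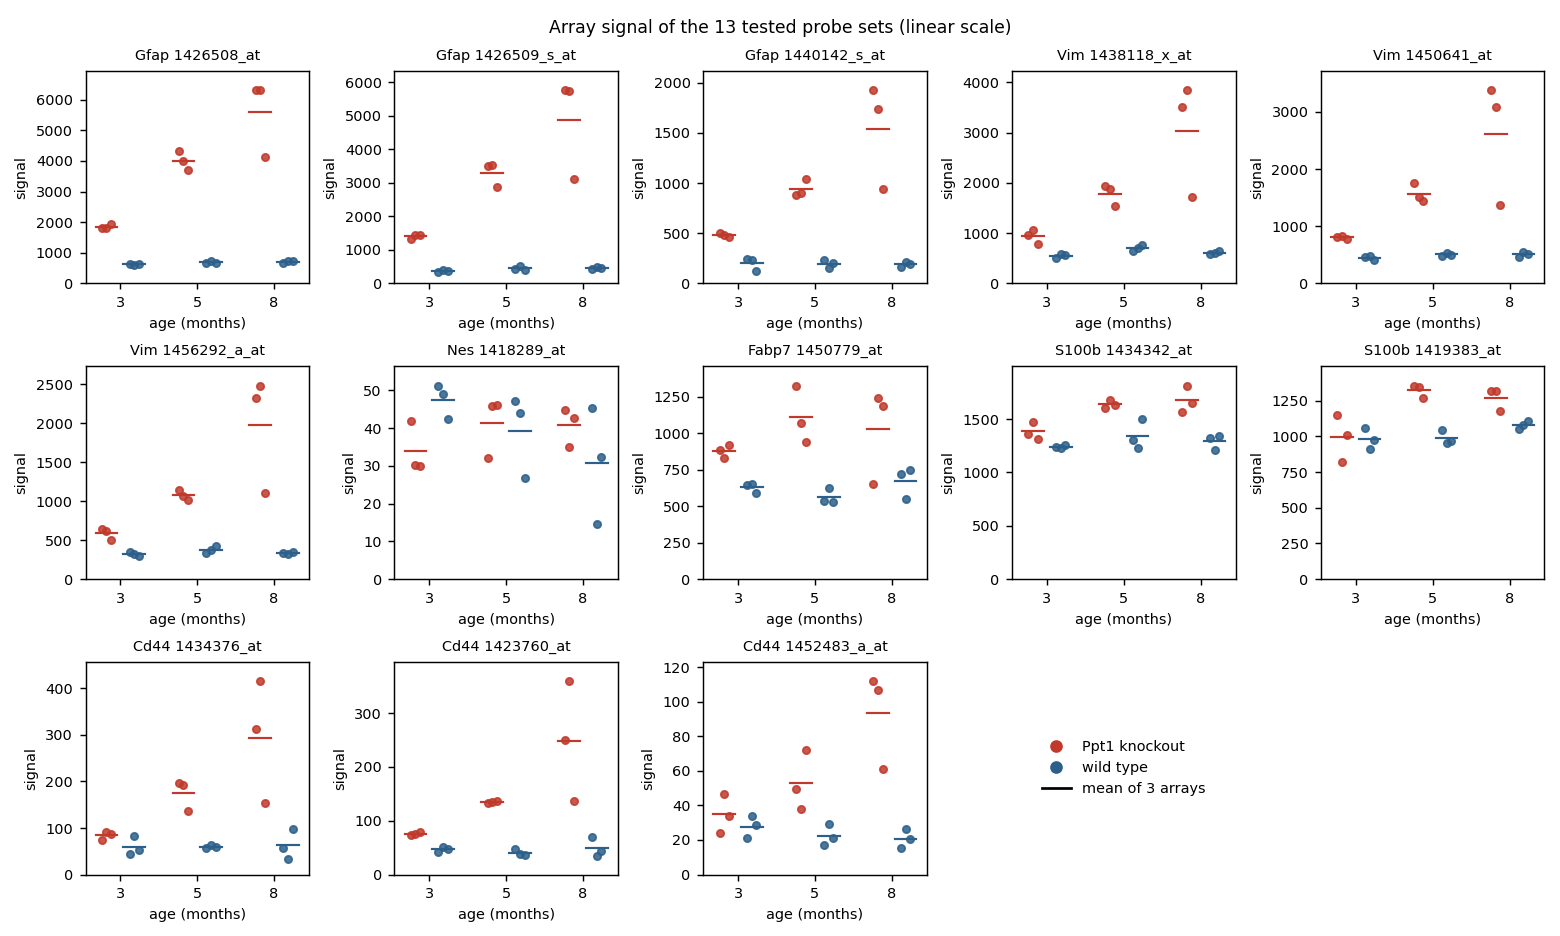
Signal (linear scale) of the 13 tested probe sets on each array against age in months, with KO arrays in red to the left of WT arrays in blue and a bar at the mean of 3 arrays. Gfap and Vim KO arrays stand above all WT arrays at every age, while Nes overlaps at 5 and 8 months.

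Cd44 had low signals throughout and was higher in KO on 2 of 3 tested probe sets at 5 months and on 3 of 3 at 8 months. Probe set 1423760_at had KO signals of 72.7, 75.9 and 79 at 3 months, 134, 135 and 136 at 5 months and 249, 359.5 and 136 at 8 months. Its WT signals were 41.5, 51.4 and 47.1 at 3 months, 47.8, 37.5 and 36.1 at 5 months and 69.5, 34.1 and 43.6 at 8 months. Every KO array lay above every WT array, the 3 KO arrays at 5 months were nearly equal, and KO replicate 3 at 8 months stayed at their level while the other KO arrays of that age stood above it. The log2 difference was 0.55 ± 0.24 (adjusted p = 0.422) at 3 months, which did not pass, 1.42 ± 0.24 (adjusted p = 0.000905) at 5 months and 1.98 ± 0.24 (adjusted p = 1.2e-05) at 8 months.

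Probe set 1434376_at ranged over 74.7 to 90.7 at 3 months, 137 to 196 at 5 months and 153 to 416 at 8 months in KO arrays, and over 44.2 to 82.2, 57.3 to 64 and 33.9 to 98.2 at the same ages in WT arrays. Probe set 1452483_a_at ranged over 23.9 to 46.4 at 3 months, 38.2 to 71.8 at 5 months and 61.1 to 112 at 8 months in KO arrays, and over 20.9 to 33.6, 16.9 to 29.2 and 15.3 to 26.6 at the same ages in WT arrays. At 3 months both overlapped between the genotypes, and at 5 and 8 months neither did. At 5 months 1434376_at differed by 1.32 ± 0.27 (adjusted p = 0.00797), and 1452483_a_at by 0.83 ± 0.22 (adjusted p = 0.0529), just short of the threshold in limma's fit. Without KO replicate 1 at 5 months the difference of 1434376_at was 1.12 (adjusted p = 0.0966). At 8 months both passed, with 2.03 ± 0.28 (adjusted p = 5.41e-05) and 1.65 ± 0.23 (adjusted p = 5.72e-05). As the mean over ages the 3 probe sets differed by 1.32 ± 0.14, 1.25 ± 0.16 and 0.9 ± 0.13, all past the threshold and with intervals that overlapped. The dimmest probe set had the smallest value, and the added 16 shrinks changes of dim signals. The fourth Cd44 probe set, 1443265_at, was at background on 8 of 9 KO and 9 of 9 WT arrays and was not tested. With no filter its mean difference was -0.04 ± 0.15 (adjusted p = 0.938, limma).

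Fabp7, measured by 1 probe set, was higher in KO, and its difference at 8 months exceeded that at 3 months by only 0.09 ± 0.24 (adjusted p = 0.912). Its KO signals were 883, 833 and 916 at 3 months, 1328, 1068 and 939.5 at 5 months and 654, 1240.4 and 1187 at 8 months. Its WT signals were 644, 655 and 593 at 3 months, 534, 623 and 526 at 5 months and 720, 551 and 751 at 8 months. At 3 and 5 months every KO array lay above every WT array of that age, and at 8 months KO replicate 1 lay within the WT range. The difference was 0.47 ± 0.17 (adjusted p = 0.298) at 3 months, 0.96 ± 0.17 (adjusted p = 0.0019) at 5 months and 0.55 ± 0.17 (adjusted p = 0.0421) at 8 months, and 0.66 ± 0.1 (adjusted p = 9.03e-05) as the mean over ages in limma's fit. The call at 8 months was lost when any of 11 single arrays was left out. Without KO replicate 1 the difference was 0.83 (adjusted p = 0.000196), without replicate 2 it was 0.32 (adjusted p = 0.367), and without replicate 3 it was 0.43 (adjusted p = 0.0964). The KO array with the lowest Fabp7 at 8 months was among the 2 with the highest Gfap.

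S100b was higher in KO by a small amount as the mean over ages. Probe set 1434342_at had KO signals of 1362, 1475 and 1318 at 3 months, 1602, 1684 and 1632 at 5 months and 1564, 1816 and 1649.9 at 8 months. In WT arrays its signals were 1239, 1228 and 1256 at 3 months, 1304, 1228 and 1502 at 5 months and 1323, 1212 and 1338 at 8 months. At each age every KO array lay above every WT array of that age. The difference was 0.16 ± 0.07 (adjusted p = 0.508) at 3 months, 0.29 ± 0.07 (adjusted p = 0.0441) at 5 months and 0.39 ± 0.08 (adjusted p = 0.00213) at 8 months. Probe set 1419383_at ranged over 821 to 1151 at 3 months, 1268 to 1357 at 5 months and 1178 to 1319 at 8 months in KO arrays, and over 913 to 1058, 953 to 1046 and 1051 to 1107 at the same ages in WT arrays. This probe set overlapped between genotypes at 3 months and not at 5 or 8 months, and its difference was 0.01 ± 0.09 (adjusted p = 0.992), 0.42 ± 0.09 (adjusted p = 0.00891) and 0.2 ± 0.09 (adjusted p = 0.153) at the 3 ages. The means over ages were 0.28 ± 0.04 (adjusted p = 0.000158) and 0.21 ± 0.05 (adjusted p = 0.00822), a span of 0.07 with shared intervals. Of the calls at single ages, that of 1434342_at at 5 months was lost when any of 12 single arrays was left out, and that of 1419383_at at 5 months without KO replicate 2 of that age. Without KO replicates 1 and 2 at 8 months, 1434342_at differed by 0.36 at that age (adjusted p = 0.0848), and the mean over ages of 1419383_at was 0.15 (adjusted p = 0.0918, limma).

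For Nes no test passed at any age. Its tested probe set, 1418289_at, was dim, with KO signals of 42, 30.1 and 29.9 at 3 months, 32.2, 45.8 and 46.1 at 5 months and 44.8, 35.1 and 42.6 at 8 months. Its WT signals were 51.3, 49 and 42.4 at 3 months, 47.1, 43.9 and 26.9 at 5 months and 45.3, 14.5 and 32.4 at 8 months. At 3 months the 3 KO arrays lay just below the 3 WT arrays, with a difference of -0.35 ± 0.22 (adjusted p = 0.676), and at 5 and 8 months the genotypes overlapped. The mean difference was -0.01 ± 0.13 (adjusted p = 0.977), with a 95% interval from -0.28 to 0.26, so a change of the size of Vim's lay outside the interval. At 8 months the difference was 0.26 ± 0.23 (adjusted p = 0.512) with an interval from -0.21 to 0.74. Probe set 1453997_a_at was at background on 8 of 9 KO and 9 of 9 WT arrays, and 1449022_at on 5 of 9 KO and 3 of 9 WT arrays. With no filter neither passed at any age in limma's fit. The widest difference of these was -1.06 ± 0.39 for 1449022_at at 8 months (adjusted p = 0.131), where its KO signals lay between 4.24 and 5.72, all at background, and its WT signals between 12.1 and 49.1. Most signals of these probe sets were close to background.

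Counted over the 13 tested probe sets, 12 were higher in KO as the mean over ages, beside 6.62% of all 27022 tested probe sets. At 3 months 5 were higher beside 0.681% of all, at 5 months 11 beside 1.64%, and at 8 months 11 beside 5.74%. By limma's test 0 were lower in KO at any age, at an adjusted or an unadjusted p of 0.05. The count at 3 months was 3, those of Gfap, without KO replicate 1 or 2 or without any 1 WT array of that age. At 3, 5 and 8 months the 13 had median changes of 0.55, 1.32 and 2.03, against 0.01, -0.01 and -0.02 over all tested probe sets. Every KO array lay above every WT array of its age for 9 probe sets at 3 months, for 12 at 5 months and for 11 at 8 months, beside 9.83%, 10.2% and 11.7% of all probe sets. Over all ages together this held for 7, all 3 of Gfap, all 3 of Vim and Cd44 1423760_at, beside 1.13% of all. For 1 probe set, that of Nes at 3 months, every KO array lay below every WT array, beside 8.61% of all.

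**Figure D2:**
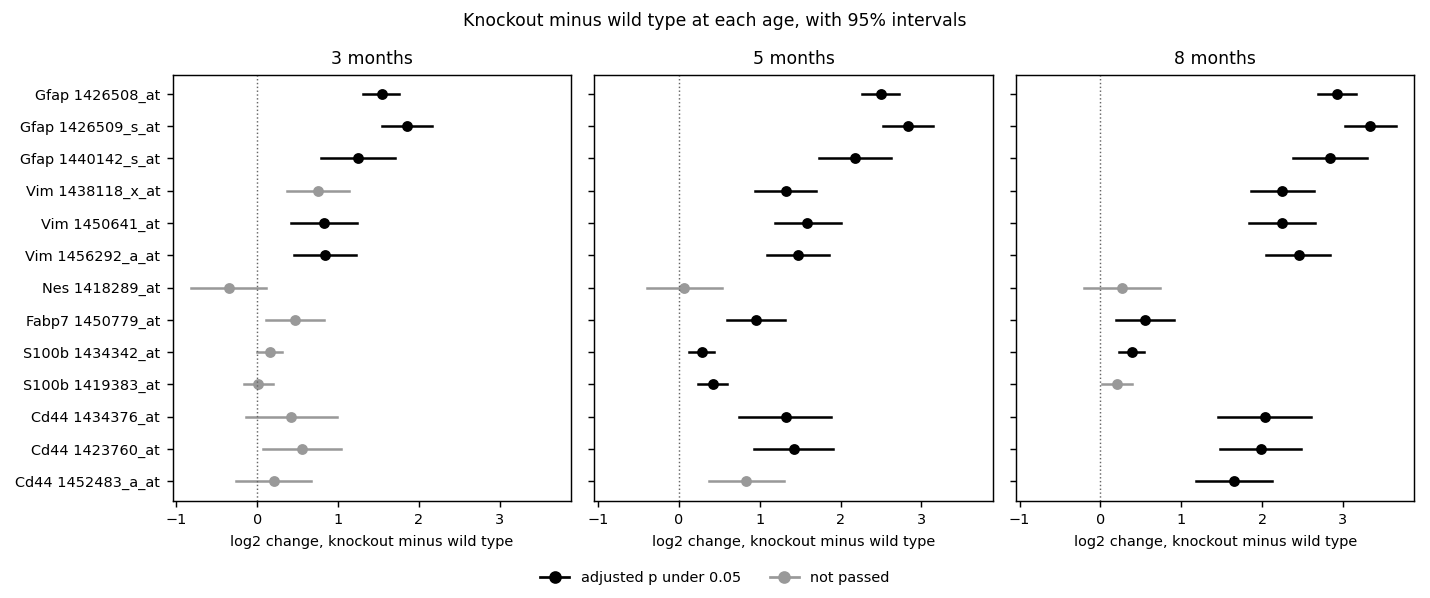
Log2 difference between KO and WT (x axis) of each tested probe set at 3, 5 and 8 months, with 95% intervals, in black where the adjusted p was under 0.05 and in grey otherwise. Gfap lies furthest right at each age, at 1.25 to 1.85 at 3 months and 2.84 to 3.34 at 8 months.

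Within KO mice, Gfap, Vim, Cd44 and S100b rose from 3 to 8 months, while for WT mice no test of age passed. From 3 to 5 months 6 of the 13 probe sets rose in KO, beside 0.152% of all tested, namely Gfap 1426508_at by 1.11 ± 0.11 (adjusted p = 4.24e-05), Gfap 1426509_s_at by 1.22 ± 0.15, the 3 of Vim by 0.87 to 0.95, and S100b 1419383_at by 0.42 ± 0.09 (adjusted p = 0.0379). That count was 2 or 3 without any 1 KO array at 3 or 5 months, WT replicate 1 or 2 at 3 months, or WT replicate 2 or 3 at 8 months. From 3 to 8 months 11 of 13 rose in KO, beside 2.9% of all. Those were Gfap by 1.57 to 1.77, Vim by 1.6 to 1.67, Cd44 by 1.2 to 1.61 and S100b by 0.29 and 0.33, while Fabp7 differed by 0.17 ± 0.17 (adjusted p = 0.636) and Nes by 0.12 ± 0.23 (adjusted p = 0.828). Fitted on only the groups compared, 6 passed, those of Gfap and Vim, beside 0.244% of all tested. The S100b calls were also lost when any of 4 single KO arrays (1419383_at) or any of 3 (1434342_at) was left out, among them replicate 3 at 3 months and replicate 2 at 8 months for both. Between 5 and 8 months 0 of 13 passed in KO by limma's test, beside 0% higher of all tested. At an unadjusted p under 0.05 there were 9 of 13, beside 3784 of all 27022 tested probe sets in either direction. In WT mice 0 members passed between 3 and 5 months, between 5 and 8 months or between 3 and 8 months, beside 0%, 0% and 0.0222% of all that were higher. At an unadjusted p of 0.05 the members' counts were 0, 0 and 1, which was Nes, beside 1085, 2191 and 1819 of all 27022 in either direction. The widest Gfap difference in WT between 3 and 8 months was 0.28 ± 0.15 (adjusted p = 0.793).

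The group means of Gfap 1426508_at were 1853 ± 76.1 at 3 months, 4011 ± 321 at 5 months and 5579 ± 1262 at 8 months in KO arrays, and 629 ± 20, 697 ± 34.1 and 717 ± 37 at the same ages in WT arrays (SD, n = 3 each). All KO groups thus stood above all WT groups, and within each genotype the means were ordered by age. Between neighbours in this order, limma's test separated KO at 5 from KO at 3 months, but not KO at 8 from KO at 5 months (0.47 ± 0.11, adjusted p = 0.0928), nor any WT groups. The neighbours KO at 3 months and WT at 8 months were not compared by a test. On Vim 1450641_at the KO groups stood in the same order, with 806 ± 30.1, 1572 ± 166 and 2613 ± 1084 at 3, 5 and 8 months, above WT groups of 449.7 ± 35.3, 509 ± 26.4 and 508 ± 36.3 at these ages. The order of the WT means by age was not shared by Gfap 1440142_s_at, where they were 201.1 ± 64.4, 198.5 ± 44.4 and 190.7 ± 22.7.

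The test of whether the genotype difference itself changed between 3 and 8 months passed for Gfap, Vim and Cd44. The difference at 8 months exceeded that at 3 months on 9 of 13 probe sets, beside 0.718% of all tested. The excess was 1.39 to 1.59 on the log2 scale for Gfap, 1.43 to 1.61 for Vim and 1.42 to 1.6 for Cd44. The adjusted p-values from limma were 0.000379 to 0.0177 for Gfap, 0.00519 to 0.0177 for Vim and 0.0311 to 0.0472 for Cd44. S100b exceeded by 0.23 ± 0.11 (adjusted p = 0.324) and 0.19 ± 0.12 (adjusted p = 0.504) and Nes by 0.61 ± 0.32 (adjusted p = 0.395). Neither the step from 3 to 5 months nor that from 5 to 8 months passed for any member by limma's test, beside 0% and 0% of all. At an unadjusted p under 0.05 the members' counts were 9 and 7, beside 1611 and 3088 of all 27022 tested probe sets in either direction. The 9 calls of a larger difference at 8 than at 3 months depended on the variance model: without a trend 0 of the 9 passed, with adjusted p-values of 0.0736 to 0.14, and with the robust model 5 did. Leaving out single arrays left 4 to 9, with 4 without KO replicate 2 at 8 months, 4 without WT replicate 2 at 3 months and 5 without WT replicate 1 at 8 months. The Cd44 calls were lost when any of 14 single arrays (1434376_at), 12 (1423760_at) or 9 (1452483_a_at) was left out. Gfap 1440142_s_at and Vim 1450641_at each lost theirs when any of 3 was left out.

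The 3 KO arrays at 8 months did not form 1 level. Replicate 3 was the lowest of them on 10 of the 13 probe sets, beside 35.1% of all tested, and on 12 it was not above the highest KO array at 5 months, beside 73% of all. Replicates 1 and 2 both exceeded every KO array at 5 months on 9, those of Gfap, Vim and Cd44, beside 18.5% of all. Against the WT mean at 8 months, Gfap 1426508_at was higher by 3.11, 3.11 and 2.5 on the log2 scale in replicates 1, 2 and 3, and Vim 1450641_at by 2.7, 2.57 and 1.41. Cd44 1423760_at was higher by 2.06, 2.57 and 1.26, whereas Fabp7 stood at -0.03, 0.88 and 0.81. Replicate 3 also had added control transcripts 0.425 above the median array on the log2 scale, the largest such shift, and a mean correlation with its group of 0.961, against 0.967 and 0.969 for the other 2 and at least 0.979 elsewhere. Its summed microglial markers were 4243, against 6292 and 7331.5 in replicates 1 and 2, and its summed neuronal markers 38636, against 35446 and 33312. The part of these in its lower Gfap, Vim and Cd44 was not tested.

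Without replicate 3, the step from 5 to 8 months in KO passed as higher on 9 of 13 probe sets, all of Gfap, Vim and Cd44, beside 4.16% of all tested, and the change of the genotype difference over this step on 6, all of Gfap and Vim, beside 2.01% of all. With all arrays in the fit both shares were 0%. Without replicates 1 and 2, where the remaining array is assumed to vary like the other groups, Gfap 1426508_at differed by 2.5 from WT at 8 months (adjusted p = 2.3e-12), Vim by 1.4 to 1.66, Cd44 1434376_at by 1.25 (adjusted p = 0.0671, limma) and Cd44 1423760_at by 1.18 (adjusted p = 0.018). The excess at 8 over 3 months then passed on 3, beside 0.218% of all tested, Gfap 1426508_at by 0.97, Gfap 1426509_s_at by 0.9 and Vim 1456292_a_at by 0.82.

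**Figure D3:**
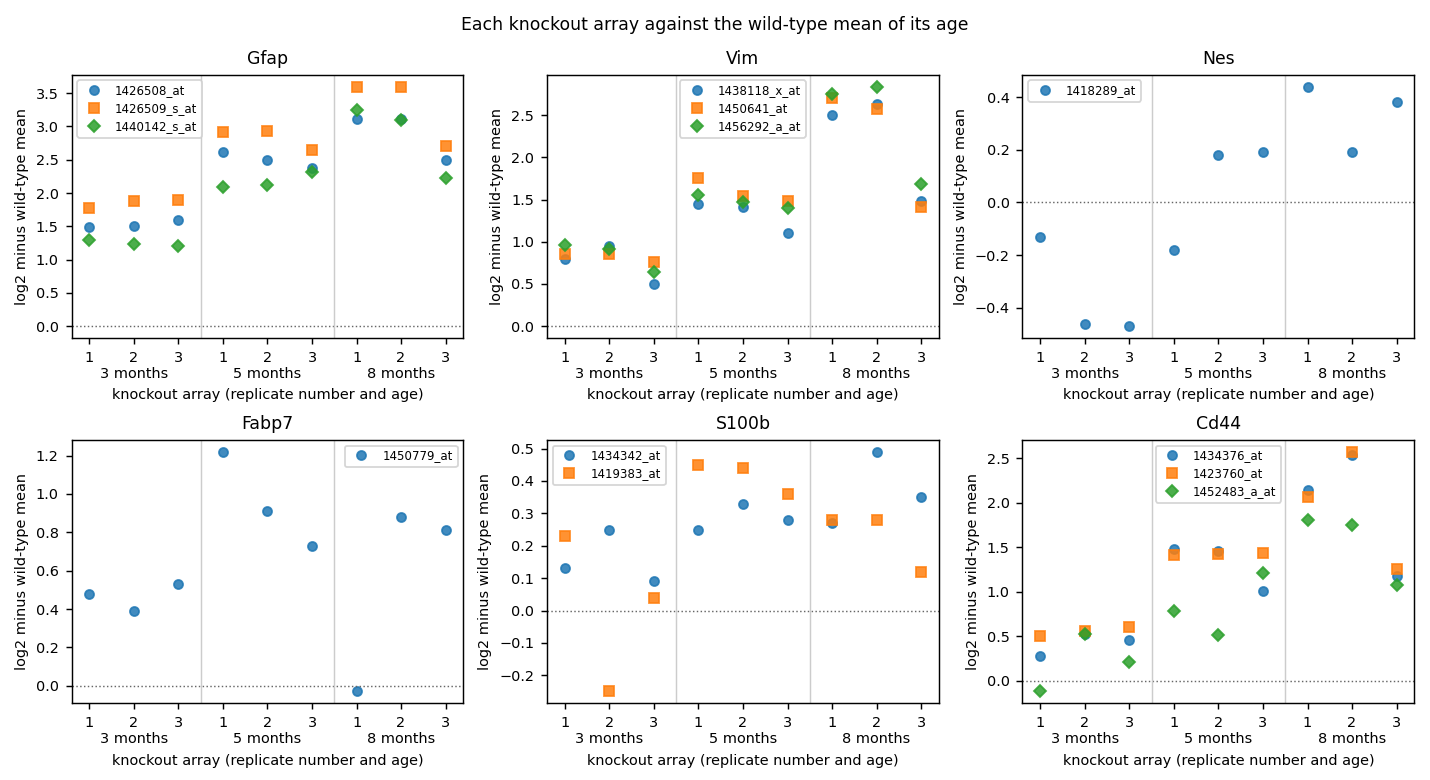
Log2 signal of each KO array minus the mean of the 3 WT arrays of its age (y axis), by age and replicate number (x axis), with 1 marker shape per probe set. At 8 months replicates 1 and 2 of Gfap, Vim and Cd44 lie above replicate 3, and replicate 1 of Fabp7 lies at -0.03.

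At 8 months the ratio of 5′ to 3′ signals of beta-actin, a sign of RNA integrity, was 0.432 to 0.482 in KO arrays and 0.501 to 0.525 in WT arrays. At 5 months it was 0.389 to 0.473 in KO and 0.412 to 0.499 in WT, and at 3 months 0.507 to 0.542 in KO and 0.48 to 0.547 in WT. The same ratio of Gapdh was 1.22 to 1.25 in KO and 1.26 to 1.35 in WT at 8 months. It was 1.16 to 1.28 in KO and 1.23 to 1.39 in WT at 5 months, and 1.34 to 1.39 and 1.31 to 1.38 at 3 months. The part of these ratios in the members' differences was not tested. The sex term of the model passed for 0 of the 13 probe sets (lowest adjusted p = 0.999, limma), with 1 at an unadjusted p under 0.05.

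Of 15 tested genes for filament proteins and their linkers, 1 rose in KO as the mean over ages, Lmna, a nuclear lamin, by 0.35 ± 0.07 (adjusted p = 0.00309, limma), and 0 fell. This count is near the share of all tested probe sets that were higher, 6.62%. That share also stands beside the counts of the lists below as the mean over ages. At 3, 5 and 8 months it was 0.681%, 1.64% and 5.74%, and for a larger difference at 8 than at 3 months 0.718%. The list's median was 0.06, against -0.01 over 12496 genes with 1 probe set each. Synm, which encodes synemin, a filament partner of Gfap and Vim, differed by 0.15 ± 0.11 (adjusted p = 0.422), and Plec, the linker plectin, by 0.04 ± 0.06 (adjusted p = 0.752), and these and the next 3 were chosen here after their values were seen. The neurofilament genes Nefl, Nefm and Nefh differed by -0.05 (adjusted p = 0.691), -0.1 (adjusted p = 0.26) and 0.06 (adjusted p = 0.527). Without KO replicate 3 at 8 months 2 of the 15 passed as lower.

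Of 24 genes of the actin cytoskeleton and adhesion, 12 rose in KO as the mean over ages and 0 fell, with a median of 0.28. The 4 with the smallest p were Cnn3, an actin-binding calponin, at 0.68 ± 0.05, Lgals1, the lectin galectin-1, at 0.78 ± 0.05, Msn, a linker of actin to the membrane and to Cd44, at 0.76 ± 0.07, and Anxa5, a phospholipid-binding annexin, at 0.53 ± 0.05. At 3 months 3 passed, Msn, Cnn3 and Lgals1, and at 8 months 13. Of the 24, Cnn3 alone passed the test of a changed difference between 3 and 8 months, by 0.69 ± 0.11 (adjusted p = 0.00519).

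Around S100b, 5 of 7 tested S100 genes rose and 0 fell, with a median of 0.68. These encode small calcium-binding proteins. S100a4 differed by 1.69 ± 0.18, S100a6 by 1.52 ± 0.09, S100a1 by 0.98 ± 0.07, S100a16 by 0.59 ± 0.05 and S100a13 by 0.68 ± 0.08. S100a6 and S100a4 also had a larger difference at 8 than at 3 months, by 1.33 ± 0.22 (adjusted p = 0.00519) and 1.88 ± 0.44 (adjusted p = 0.0424). Around Fabp7, 2 of 3 tested genes rose, Fabp5, the epidermal fatty acid binding protein, by 0.34 ± 0.04 and Crabp2, a carrier of retinoic acid, by 0.47 ± 0.13. The other was Fabp3, the heart-type binding protein, at -0.12 ± 0.05 (adjusted p = 0.145, limma) as the mean over ages, and at 8 months it fell by 0.28 (adjusted p = 0.0463). Without KO replicate 3 at 8 months 1 of the 3 passed as lower in the mean over ages. Around Cd44, 1 of 8 ligands and partners rose, Mmp14, a membrane protease, by 0.72 ± 0.12, beside 6.62% of all tested probe sets.

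Of 15 genes known to act on Gfap and Vim transcription or upstream of it, 7 rose and 0 fell, with a median of 0.29. Osmr, the receptor of oncostatin M, rose by 1.85 ± 0.14, Cebpd, a transcription factor of inflammation, by 1.42 ± 0.13, Fos, a part of AP-1, by 1.42 ± 0.16 and Stat3, the factor that receptors of oncostatin M and related cytokines activate, by 0.7 ± 0.08. The other 3 were Il6st, the shared receptor chain of these cytokines, at 0.5 ± 0.06, Socs3, an inhibitor of STAT signalling, at 0.98 ± 0.23, and Jun, the partner of Fos, at 0.29 ± 0.07. Stat3 stood at 0.29 ± 0.14 at 3 months (adjusted p = 0.503, limma), 0.84 ± 0.14 at 5 months and 0.96 ± 0.14 at 8 months. Fos stood at 1.46 ± 0.27, 1.76 ± 0.27 and 1.05 ± 0.28 at these ages. Osmr and Cebpd had a larger difference at 8 than at 3 months, by 1.58 ± 0.35 (adjusted p = 0.0338) and 1.56 ± 0.31 (adjusted p = 0.0195).

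Of 17 genes of radial glia and neural stem cells, to which Nes and Fabp7 also belong, 5 rose and 0 fell, with a median of 0.14. Pdpn, podoplanin, rose by 1.14 ± 0.08, Ednrb, an endothelin receptor, by 0.58 ± 0.06, Thbs4, a thrombospondin, by 0.92 ± 0.21, and the transcription factors Tead1 by 0.4 ± 0.08 and Sox2 by 0.3 ± 0.07.

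Of 18 general astrocyte markers, 11 passed as higher and 0 as lower as the mean over ages, with a median of 0.23. Aqp4, the water channel of astrocyte endfeet, stood at 0.98 ± 0.06, Sox9 at 0.71 ± 0.09 and Mlc1 at 0.6 ± 0.06, with Clu at 0.55 ± 0.04 and Apoe at 0.44 ± 0.04. Aldh1l1 and the glutamate transporters Slc1a2 and Slc1a3, markers of astrocytes in general, differed by 0.44 ± 0.07, 0.18 ± 0.04 and 0.23 ± 0.07. Those that did not pass were Gjb6 (0.15), Acsbg1 (0.15), Slc4a4 (0.1), Fgfr3 (0.08), Aldoc (0.02), Ndrg2 (-0.02) and Glul (-0.05). At 3 months 1 of 18 passed, Aqp4, at 5 months 7 and at 8 months 13. The difference at 8 months exceeded that at 3 months for 5, Aqp4, Gjb6, Mlc1, Ntsr2 and Clu, by 0.45 to 1.05. For Gjb6 this change of 1.05 was wider than its difference of 0.73 at 8 months, so its estimate at 3 months lay below 0. The summed signal of the 18 was 44329.6 to 48805 at 3 months, 53420.1 to 54784 at 5 months and 55986 to 65958 at 8 months in KO arrays, against 44811 to 45344, 42579.6 to 44339.8 and 44520.3 to 46547 at the same ages in WT arrays.

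Some markers of other cell types also differed between the genotypes. Of 12 microglia and macrophage markers 8 rose and 1, P2ry12, a receptor of resting microglia, fell by 0.55, with a median of 0.84. Tyrobp, an adaptor of microglial receptors, rose by 1.77 ± 0.08, Cd68, a lysosomal protein of phagocytes, by 1.78 ± 0.12, C1qa, a complement chain, by 1.39 ± 0.08 and Fcer1g, an Fc receptor chain, by 1.33 ± 0.1. Their summed signal was 3719 to 3939 at 3 months, 4578 to 4871 at 5 months and 4243 to 7332 at 8 months in KO arrays, against 2451 to 2751, 2599.7 to 3052 and 3072 to 3271 at the same ages in WT arrays, so the groups were apart at every age, as they were for Gfap. Of 10 markers of meninges and fibroblasts 7 rose, with a median of 0.46, with decorin (Dcn) at 0.51 ± 0.08 and a collagen I chain (Col1a2) at 0.52 ± 0.09. Their summed signal was 9232 to 11153 at 3 months, 10598 to 11562 at 5 months and 12146 to 12891 at 8 months in KO arrays, against 9729 to 10764, 8639.5 to 10396 and 9110.4 to 10339.8 at the same ages in WT arrays. Of 11 markers of endothelium and pericytes 3 rose, Vtn by 0.4 ± 0.05, Cldn5 by 0.36 ± 0.08 and Pdgfrb by 0.44 ± 0.11. Their summed signal was 2736 to 2741 at 3 months, 2641 to 2756 at 5 months and 2454 to 3295 at 8 months in KO arrays, against 2413 to 2511, 2293 to 2614 and 2427 to 2478 at the same ages in WT arrays. By age, the microglial list had medians of 0.73, 0.93 and 0.89 at 3, 5 and 8 months, where 6, 7 and 7 markers passed as higher. The meningeal list had 0, 0 and 6 passing as higher at these ages, and the endothelial list 2, 1 and 3. A changed difference between 3 and 8 months passed for 0 of 12 microglial, 1 of 10 meningeal and 0 of 11 endothelial markers. Of these lists, 12 of 12, 8 of 10 and 11 of 12 markers were above background on every array and 0 were at background on all. Cd44 and Vim are made by some of these cells too, and the part of their markers in the members' differences was not tested.

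Of 12 neuronal markers 4 fell and 0 rose as the mean over ages, beside 1628 of all 27022 tested probe sets that fell. They were Tubb3 by 0.19, Slc17a7 by 0.23, Syt1 by 0.17 and Camk2a by 0.46, and without KO replicate 3 at 8 months 7 fell. At 3 and 5 months 0 of the 12 passed, and at 8 months 4 passed as lower. Camk2a stood at -0.68 ± 0.24, 0.28 ± 0.24 and -0.99 ± 0.24 at 3, 5 and 8 months. The summed signal of the 12 was 35488 to 37383 at 3 months, 37041 to 37817 at 5 months and 33312 to 38636 at 8 months in KO arrays, against 38536 to 40229.9, 38719.9 to 40542 and 40094 to 40458 at the same ages in WT arrays. For 10 oligodendrocyte markers the summed signal in KO arrays was 22236 to 25030 at 3 months, 25851 to 27163 at 5 months and 27041 to 29084 at 8 months. In WT arrays it was 26220 to 28772, 24178 to 25363 and 24554 to 26041 at the same ages. The KO arrays thus lay below the WT arrays at 3 months and above them at 5 and 8 months. Of these 10 markers 1 fell as the mean over ages, Mal by 0.36. At 8 months 2 were higher in KO, Cldn11 by 0.82 ± 0.13 and Mobp by 0.21 ± 0.06, and 1 was lower, Ugt8a, an enzyme of myelin lipid synthesis, which fell by 0.7. KO minus WT was higher at 8 than at 3 months for 3 of the 10 oligodendrocyte markers. The changes were 1.18 ± 0.18 for Cldn11 (adjusted p = 0.00442), 0.7 ± 0.16 for Mal (adjusted p = 0.0403) and 0.45 ± 0.09 for Mobp (adjusted p = 0.0195, limma). Of the 10 meningeal markers 1 changed likewise, Col1a1, a collagen I chain, by 1.82 ± 0.34 (adjusted p = 0.0167, limma). Mal went from -0.71 ± 0.11 at 3 months to -0.01 ± 0.12 at 8 months, so its change was the loss of a lower KO signal. At 8 months Col1a1 differed by 1.4 ± 0.24. For Cldn11, Mobp and Col1a1 the change exceeded the difference at 8 months, so their estimates at 3 months lay below 0. These passed the same test as Gfap, Vim and Cd44, whose estimates at 3 months lay above 0. The part of these markers in the members' differences was not tested. Of 8 markers of choroid plexus and ependyma 1 rose, Foxj1 by 0.42 ± 0.11, and of 5 tested cochlea markers 1 rose, Gjb2, a gap junction gene, by 0.45 ± 0.09. Over all tested probe sets 6.62% were higher in this mean over ages. Of 6 lymphocyte markers on the array 0 passed the filter on dim probe sets.

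**Figure D4:**
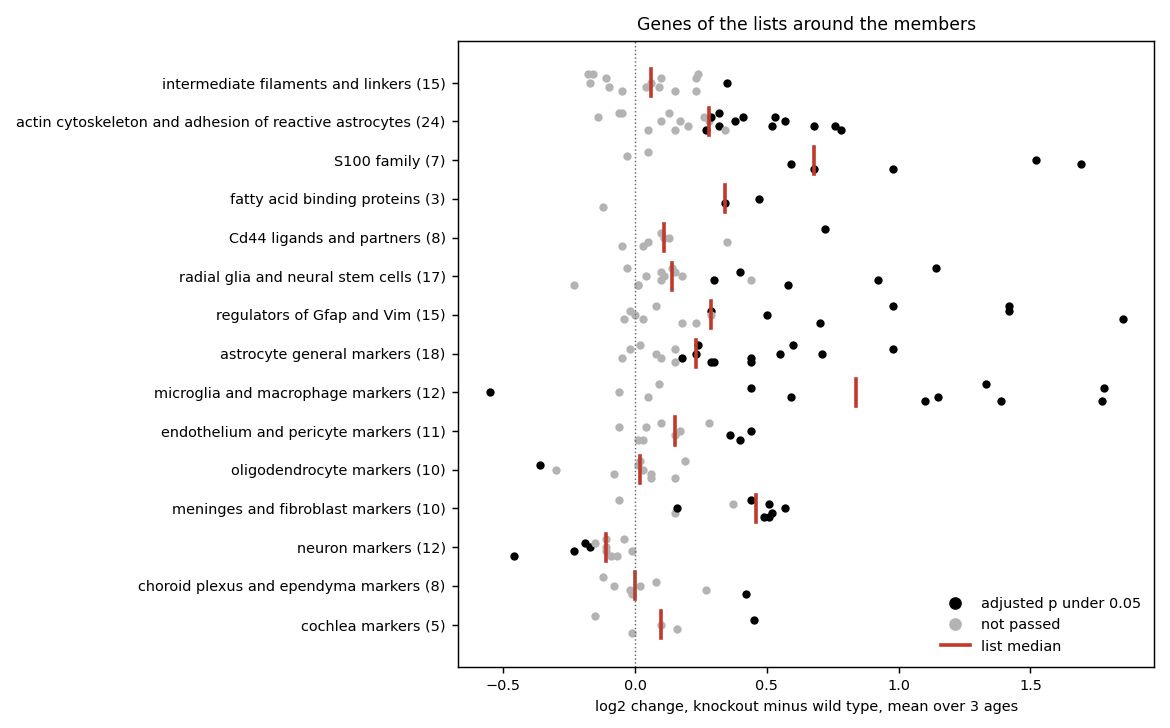
Log2 difference between KO and WT as the mean over 3 ages (x axis) for each tested gene of 15 lists, with the number tested in brackets, in black where the adjusted p was under 0.05 and in grey otherwise, and the list median as a red bar. Filament genes other than the members lie near 0, at a median of 0.06, and microglia markers have a median of 0.84.

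Profiles over the 6 group means, each centred on its own mean, were compared by root mean square difference over 12496 genes with 1 probe set each, as a description with no test. Closest to Gfap were Cst7 (0.15), Osmr (0.24), Mpeg1 (0.26), Lgals3 (0.27) and Rhoj (0.28), where the median gene stood at 1.26. Their differences between the KO and WT means were, in this order, 1.88, 1.08, 1.93, 1.51 and 1.54 at 3 months. At 8 months they were 2.88, 2.72, 2.4, 3.38 and 2.91. Closest to Vim were Chil1 (0.09), S100a6 (0.12), S1pr3 (0.14), A2m (0.18) and AU020206 (0.19), where the median gene stood at 0.87. At 3 months Chil1 differed by 0.86, S100a6 by 0.78 and A2m by 0.39, and at 8 months by 1.99, 2.1 and 2.23.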

How the data were processed

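Arrays of total RNA were grouped by the genotype, age and sex in the labels, and replicates were numbered in record order. The authors deposited linear intensities, 1 per probe set and array. How they were computed and scaled is not given in the sources used here. The mean without the lowest and highest 2% was 150 on every array. Medians of the arrays lay within 0.094 of each other (log2), under the limit of 0.5, so no further normalization was applied. No 2 arrays held identical values, and 3 arrays a group limit the precision.

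Probe sets were named from GEO's platform annotation (34958 had 1 symbol, 932 several, the rest none). Values were analysed as log2(signal + 16), which understates changes of dim genes. After leaving out 64 controls and the dimmest 40%, there remained 27022 probe sets with a mean of at least 5.36. limma 3.58.1 in R 4.3.3 (lmFit, eBayes with trend) fitted 6 groups and an additive sex term to all 18 arrays, with two-sided tests, Benjamini-Hochberg adjustment over all tested probe sets and a threshold of 0.05. Background on an array is the 95th percentile of 27 bacterial control probe sets. The fit was tested on simulated data. Figures were drawn with matplotlib 3.10.9.

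Of the 223 genes on 16 lists, each was taken from its brightest probe set, and up to 4 per list with the smallest p among those that passed in the mean over ages were named, as were the 5 genes closest in profile to Gfap and to Vim. A few more were named after their values were seen. These are the further passing genes S100a13, Sox2, Socs3, Il6st, Jun, Sox9, Aldh1l1, Slc1a2, Slc1a3, Gjb6, Ntsr2, P2ry12, Cldn11, Mobp, Ugt8a and Col1a1, and Fabp3, Synm, Plec, Nefl, Nefm, Nefh, Oc90, Acsbg1, Slc4a4, Fgfr3, Aldoc, Ndrg2 and Glul. Members, lists and settings were chosen with earlier results of these data known. The alternatives tried were other scalings (quantile, centring on medians), pseudocounts 1 and 64, filters (none, or 60%), a model without sex, eBayes without its trend and in robust form, weighted arrays, a single probe set for each gene, fits on only the groups compared, both of 2 KO arrays at 8 months left out, and each array left out in turn. Promoter windows came from RefSeq's table.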

Additional observations from a re-analysis of the deposited data

Results flagged for a closer look

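The genotype difference was larger at 8 months than at 3 months on 9 probe sets, by the test of that change itself in limma's fit, and these were singled out because the effect of the same contrast differed between ages. For Gfap the excess was 1.39 ± 0.16 on 1426508_at, 1.49 ± 0.21 on 1426509_s_at and 1.59 ± 0.31 on 1440142_s_at. For Vim it was 1.5 ± 0.26 on 1438118_x_at, 1.43 ± 0.28 on 1450641_at and 1.61 ± 0.26 on 1456292_a_at. For Cd44 it was 1.6 ± 0.39 on 1434376_at, 1.42 ± 0.34 on 1423760_at and 1.45 ± 0.32 on 1452483_a_at. These Cd44 calls were lost when any of 14, 12 and 9 single arrays, in this order, was left out. Gfap 1440142_s_at and Vim 1450641_at each lost theirs when any of 3 was left out. Without a trend in the variance model none of the 9 passed, and with the robust model only some did. Groups of 3 arrays are too small for a test of single outlying arrays.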

How the results depend on the processing

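Of the results past the threshold under the reported or the alternative setting, 0 changed direction. Sign changes of values past it under neither were not counted. The mean over ages called 12 of 13 probe sets under every setting that kept all 13, except that without KO replicates 1 and 2 at 8 months S100b 1419383_at did not pass. With 1 probe set per gene, which leaves 6, the calls were 5 for the mean, 2 at 3 months, 5 at 5 months, 5 at 8 months, 3 for the change of the difference from 3 to 8 months, 2 for KO from 3 to 5 months and 4 for KO from 3 to 8 months. eBayes without trend gave 2 at 3 months, 0 for the change from 3 to 8 months and 1 for KO from 3 to 5 months, and robust eBayes 3, 5 and 3. No filter gave 2 for KO from 3 to 5 months. Array weights gave 2 for the change from 3 to 5 months, 4 for that from 5 to 8 months and 8 for KO from 5 to 8 months. With only the groups compared, which cannot give the mean over ages, the calls were 3 for the change from 3 to 5 months and 6 for KO from 3 to 8 months. Without KO replicates 1 and 2 at 8 months they were 3 for the change from 3 to 5 months, 3 for that from 3 to 8 months and 5 for KO from 3 to 8 months. These are counts of members only, so they do not tell a shift of the members from a shift over all probe sets. The cause of these shifts was not tested, apart from the fewer probe sets or arrays that some settings use.

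Leaving out each array in turn gave 12 to 12 calls for the mean, 3 to 7 at 3 months, 9 to 12 at 5 months, 10 to 11 at 8 months, 0 to 3 for the change from 3 to 5 months, 0 to 6 for that from 5 to 8 months, 4 to 9 for that from 3 to 8 months, 2 to 9 for KO from 3 to 5 months, 0 to 9 for KO from 5 to 8 months, 9 to 11 for KO from 3 to 8 months and 0 to 0 for each comparison of WT ages. Over all tested probe sets the mean then had 2510 to 5028 calls. The calls were 123 to 444 at 3 months, 294 to 933 at 5 months and 1266 to 5369 at 8 months. For the change of the difference they were 0 to 24 from 3 to 5 months and 0 to 1085 from 5 to 8 months. The step in KO from 3 to 5 months had 3 to 453, and that from 5 to 8 months 0 to 2560. KO from 3 to 8 months had 308 to 4301. Over all probe sets the calls for the change from 3 to 8 months were 282, and 44 to 1967 with an array left out, where 44 was without WT replicate 2 at 3 months and 1967 without KO replicate 3 at 8 months. As an addition made after seeing the data, the lists were counted without that KO array. As the mean over ages, 15 of 24 actin genes and 14 of 18 astrocyte markers were then higher and 7 of 12 neuronal markers lower, while the calls over all probe sets were 5028, against 3418 with it. No paired analysis was possible because sample numbers in the labels run through the whole series and no number is shared between groups. Signals near background, as for Nes, limit what these arrays show.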
